A study of Mus musculus with 2 samples.

Results

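Levels of 8 cholesterol genes were read in CD8 T cells, the cytotoxic T lymphocytes, from spleens of C57BL/6 mice labelled WT. The genes were taken as listed: Hmgcs1, Mvd, Idi1, Fdps, Sqle and Cyp51, which encode enzymes of cholesterol synthesis, and Srebf2 and Insig1, which encode its control proteins. They are 8 of the 33696 genes in the files, and none of them is an uptake gene, so a list of uptake genes was read beside them. The DHEA group was injected under the skin every day for 21 days with dehydroepiandrosterone (DHEA), an androgen precursor, at 40 mg/kg in 20 µL of sesame oil, a mouse model of polycystic ovary syndrome. The CTRL group was given the same volume of the oil on the same schedule. Both groups therefore had daily oil injections, and each is 1 droplet library of bead-isolated cells. The isolated cells are called pooled, and the sources used here do not give the number, sex or age of the mice. With 1 library per group no test was possible, and no difference below has a replicate check.

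Cells make cholesterol from acetyl-CoA, first along the mevalonate arm to farnesyl diphosphate and then, from squalene on, along the sterol arm. When sterols in the endoplasmic reticulum are low, SCAP carries the transcription factor SREBP-2, the product of Srebf2, to the Golgi, where the site-1 and site-2 proteases release its active part. That part raises transcription of synthesis and uptake genes and of Srebf2 itself, while INSIG proteins hold SCAP back when sterols are plentiful. Activated T cells raise this programme as they grow and divide.

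Levels were taken in 10699 DHEA cells and 8717 CTRL cells with at least 200 detected genes, under 10% mitochondrial UMIs (unique molecular identifiers, each standing for 1 captured RNA molecule), a UMI of Cd8a or Cd8b1 and a UMI of Cd3d, Cd3e or Cd3g. These cells held 50077687 UMIs in the DHEA library and 49239407 in the CTRL library, with medians of 4483 and 5615 per cell, so the DHEA cells were shallower. In CPM (UMIs per 1000000), the CD8 chain gene Cd8b1 was at 1266 in DHEA and 1017 in CTRL, and the helper T cell gene Cd4 had 4 and 3 UMIs. Summed markers of B cells stood at 288 CPM in DHEA and 268 in CTRL, with 1 of 7 at 0 in each library. Those of myeloid cells stood at 76.7 and 64.3 CPM, with 0 and 2 of 9 at 0. Natural killer, helper T, and red cell and platelet markers summed to 14.5, 37.7 and 5.97 CPM in DHEA and 13.7, 38.5 and 7.53 CPM in CTRL. The part of such RNA in the results was not tested. The 2 libraries shared 51 cell barcodes. Values in brackets after a level, share or ratio are exact 95% limits for counting error alone.

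Of the 6 enzyme genes, 4 were higher in the DHEA library with a counting interval of the ratio above no difference. The regulator gene Srebf2 was lower, with its interval below no difference. The largest ratio of a member was that of Idi1, at 1.49-fold, and none of the 8 members was 1.5-fold or more apart, although Idi1 was just past that with TMM scaling (log2 ratio 0.59 in place of 0.58). Among the 10515 genes that reached 200 UMIs in both libraries together, 3.24% were at least 1.5-fold apart, 1.81% higher and 1.44% lower in DHEA. Counting intervals of the ratio lay above no difference for 26.3% of these genes and below it for 28.2%, so an interval that leaves out no difference was common at this depth and does not set a gene apart. Level intervals that do not overlap, given below for single genes, were not counted over all genes.

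The promoters of the enzyme and regulator genes are shown because SREBP-2 acts on them together with NF-Y and Sp1, which bind the CCAAT and GC boxes. RefSeq promoter windows on GRCm38.p6, from 250 bases before to 50 after the start, were at hand for 6 of the 8 members, and 4 are printed. Capitals mark a sterol response element, searched as TCACNCCA on both strands, and the CCAAT box, which reads ATTGG where it lies on the other strand. The windows are chr13:119690101-119690400, plus strand, for Hmgcs1, chr15:82147019-82147318, plus strand, for Srebf2, chr13:8885356-8885655, plus strand, for Idi1, and chr8:122443373-122443672, minus strand, for Mvd.
Hmgcs1: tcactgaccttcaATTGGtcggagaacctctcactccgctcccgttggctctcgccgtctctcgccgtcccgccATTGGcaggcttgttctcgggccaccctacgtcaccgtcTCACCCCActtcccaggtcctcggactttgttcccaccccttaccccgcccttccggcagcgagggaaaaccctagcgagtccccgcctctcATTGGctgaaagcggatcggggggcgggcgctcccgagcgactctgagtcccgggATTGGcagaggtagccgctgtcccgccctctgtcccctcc
Srebf2: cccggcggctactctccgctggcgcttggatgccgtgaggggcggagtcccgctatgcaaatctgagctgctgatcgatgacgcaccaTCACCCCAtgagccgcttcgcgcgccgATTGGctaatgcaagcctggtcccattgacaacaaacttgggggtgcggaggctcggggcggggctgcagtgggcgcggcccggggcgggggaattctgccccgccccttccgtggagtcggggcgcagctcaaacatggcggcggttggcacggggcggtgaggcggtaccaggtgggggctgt
Idi1: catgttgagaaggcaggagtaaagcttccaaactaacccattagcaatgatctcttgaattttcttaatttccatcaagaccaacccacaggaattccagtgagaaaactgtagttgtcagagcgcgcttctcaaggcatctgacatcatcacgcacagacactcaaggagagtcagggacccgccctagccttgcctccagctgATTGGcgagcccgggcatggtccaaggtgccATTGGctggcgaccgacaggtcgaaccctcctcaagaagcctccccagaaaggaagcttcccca
Mvd: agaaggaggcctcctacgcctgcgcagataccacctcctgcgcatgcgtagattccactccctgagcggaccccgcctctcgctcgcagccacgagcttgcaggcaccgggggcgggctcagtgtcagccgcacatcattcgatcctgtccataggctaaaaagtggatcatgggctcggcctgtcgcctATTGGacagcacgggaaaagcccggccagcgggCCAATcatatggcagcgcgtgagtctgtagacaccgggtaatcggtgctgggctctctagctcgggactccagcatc
The sterol response letters were in the Hmgcs1 and Srebf2 windows, 2 of the 6, and in 4.36% of all 32851 windows of this length. A CCAAT box was in 6 of the 6 member windows and in 37.4% of all windows. The GC box, searched as GGGCGG on both strands, was also in 6 of 6 and in 35.7% of all windows. Among the 15 synthesis genes with a window, 14 held a CCAAT box, 14 a GC box and 2 the sterol response letters. The motif letters were chosen after the windows were seen, so these shares are no test. No match of 1 motif overlapped a match of another in the 6 windows. A match is a description of letters and not a measured binding site.

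In the mevalonate arm, Hmgcs1, which encodes the synthase that forms HMG-CoA, stood at 14.5 CPM (13.5 to 15.6) in the DHEA library and 14.9 CPM (13.8 to 16.0) in the CTRL library. The intervals overlap almost wholly, and the log2 ratio of DHEA over CTRL was -0.03 (-0.18 to 0.12). Mvd encodes the decarboxylase that makes isopentenyl diphosphate. Its level was 11.2 CPM (10.3 to 12.2) in DHEA and 8.67 CPM (7.87 to 9.53) in CTRL, and the intervals do not overlap. That is a log2 ratio of 0.37 (0.19 to 0.56), or 1.30-fold.

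Idi1 encodes the isomerase that turns isopentenyl into dimethylallyl diphosphate. It stood at 12.1 CPM (11.2 to 13.1) in the DHEA library, from 608 UMIs, and 8.12 CPM (7.35 to 8.96) in the CTRL library, from 400. Its log2 ratio of 0.58 (0.40 to 0.77) was above 98.2% of the genes measured. Fdps, the synthase of farnesyl diphosphate, where the sterol and isoprenoid branches part, had 27.2 CPM (25.7 to 28.6) in DHEA and 22.3 CPM (21.0 to 23.7) in CTRL. The log2 ratio was 0.28 (0.17 to 0.40), and the levels again do not overlap within counting error.

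In the sterol arm, Sqle, the squalene epoxidase gene and a control point of the arm, was thinly counted, with 123 UMIs in DHEA and 118 in CTRL. Its level was 2.46 CPM (2.04 to 2.93) in DHEA and 2.40 CPM (1.98 to 2.87) in CTRL, a log2 ratio of 0.04 (-0.34 to 0.41). Cyp51, which encodes the lanosterol demethylase, stood at 8.81 CPM (8.003 to 9.67) in DHEA and 6.99 CPM (6.27 to 7.76) in CTRL. That gives a log2 ratio of 0.33 (0.13 to 0.54), with intervals of the levels that do not overlap.

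Srebf2, the gene of the transcription factor itself, went the other way. It stood at 40.6 CPM (38.9 to 42.4) in the DHEA library and 49.6 CPM (47.7 to 51.6) in the CTRL library, a log2 ratio of -0.29 (-0.37 to -0.20). Only 8.59% of the genes measured were as low or lower in ratio. Insig1, which encodes the protein that retains SCAP and is itself a target of SREBP-2, had 8.35 CPM (7.57 to 9.19) in DHEA and 7.78 CPM (7.02 to 8.60) in CTRL. These overlap, and the log2 ratio was 0.10 (-0.10 to 0.31).

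**Figure D1:**
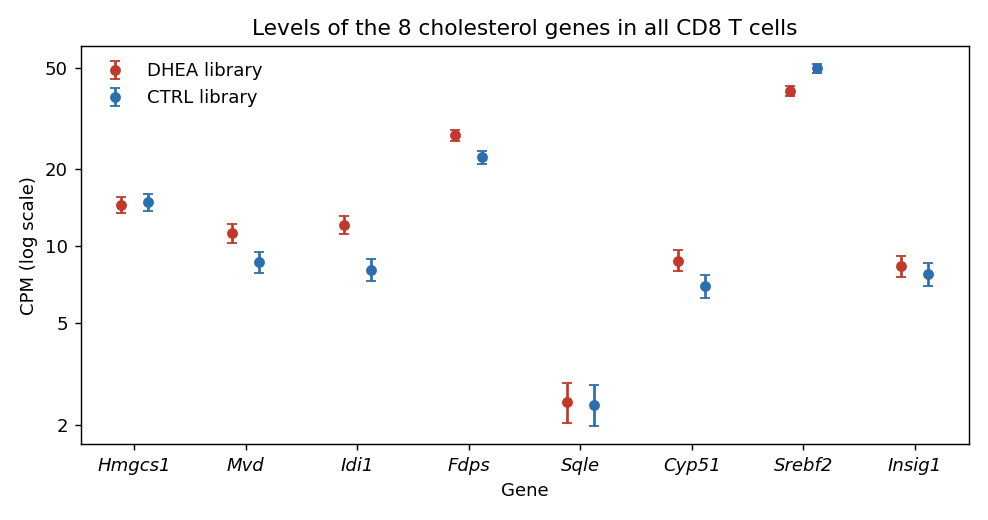
Level of each of the 8 genes in all CD8 T cells, in CPM on a log axis, with the DHEA library left of the CTRL library and exact 95% Poisson intervals as bars. Mvd, Idi1, Fdps and Cyp51 are higher in DHEA with intervals apart, Srebf2 is lower (40.6 and 49.6 CPM), and Hmgcs1, Sqle and Insig1 overlap. How many of all genes have intervals apart was not counted.

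Srebf2 held 36.6% of the UMIs of the 8 genes, so their sum mixes both directions. The sum was 125 CPM in DHEA and 121 CPM in CTRL, a log2 ratio of 0.05 (0.0017 to 0.10), and its interval included no difference in cells with 2000 to 8000 UMIs (0.03, -0.03 to 0.09). Without Srebf2 the other 7 genes summed to 84.7 CPM in DHEA and 71.1 CPM in CTRL (0.25, 0.19 to 0.32). Gene length moved with these ratios. Over 5 like-sized groups of genes by genomic span, the median log2 ratio was 0.11 in the shortest and -0.15 in the longest. Idi1 (6.79 kb) is in the shortest group and Srebf2 (58.1 kb) in the next to longest, and with the median of their group subtracted they stood at 0.47 and -0.23. Over the 8 members, 6 were higher and 2 lower before this step (median 0.19), and 4 higher and 4 lower after it (median 0.10). Sqle and Insig1 changed sign, to -0.04 and -0.01. The part of span in the results was not tested further.

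The rest of the pathway was read from 7 lists of 66 genes, of which 58 had at least 200 UMIs. None of the 58 was at least 1.5-fold apart. In the 2 synthesis arms together, 16 of 20 measured genes were higher in the DHEA library, with a median log2 ratio of 0.11, while 5204 of all 10515 genes measured (49.5%) were higher, with a median of 0.00. The 20 genes include 6 of the members. With span medians subtracted, 13 of the 20 were higher (median 0.08).

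Of the other mevalonate arm genes, Mvk and Pmvk encode the kinases that act on mevalonate in turn. The log2 ratios of Mvk (0.19, -0.07 to 0.45) and Pmvk (0.10, -0.09 to 0.29) had intervals that include no difference. In the sterol arm, Hsd17b7, a 3-ketosteroid reductase of late cholesterol synthesis, came closest to Idi1. It had 243 UMIs in DHEA and 162 in CTRL (0.56, 0.27 to 0.86). Msmo1, the sterol methyl oxidase gene, stood at 15.02 CPM in DHEA and 12.9 CPM in CTRL (0.22, 0.07 to 0.38).

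Genes that release SREBP-2 from the membrane had ratios on the same side as Srebf2. Mbtps2, the site-2 protease gene, stood at 19.0 CPM in DHEA and 23.3 CPM in CTRL, a log2 ratio of -0.30 (-0.42 to -0.17). The site-1 protease gene Mbtps1 had 32.5 CPM in DHEA and 37.8 CPM in CTRL (-0.22, -0.31 to -0.12), and the escort gene Scap 20.2 and 22.1 CPM (-0.13, -0.26 to -0.01). All 3 are in the same span group as Srebf2, whose median was -0.06. Over the whole control list, 4 of 9 measured genes were higher and 5 lower, with a median of 0.00.

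Of the uptake and lysosomal release genes, 0 of 6 measured were higher in the DHEA library and 6 were lower, with a median log2 ratio of -0.08. Scarb1, the gene of the HDL receptor SR-BI, was at -0.16 (-0.37 to 0.05). Npc2, whose product moves cholesterol out of the lysosome, stood at 425 CPM in DHEA and 458 CPM in CTRL (-0.11, -0.14 to -0.08). With span medians subtracted, 1 of these 6 was higher and 4 were lower, and Npc1, a lysosomal cholesterol transporter gene named here after its value was seen, was itself the median of its group.

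Efflux and esterification genes had 2 of 6 measured members higher (median -0.06). These were Nr1h2, the gene of the oxysterol receptor LXR-beta (0.17, 0.08 to 0.25), and Abcg1, a cholesterol exporter gene at 91.5 CPM in DHEA and 84.4 CPM in CTRL (0.12, 0.06 to 0.18). Its relative Abca1 was at -0.11 (-0.28 to 0.05), and Osbp, an oxysterol-binding protein gene, at -0.15 (-0.26 to -0.03). The isoprenoid branch, which makes the tails of ubiquinone and of prenylated proteins, had 5 of 10 higher (median 0.02), with Pdss2 at -0.26 (-0.34 to -0.18), Pdss1 at 0.18 (0.02 to 0.33) and Rabggta at 0.16 (0.02 to 0.31). Fatty acid synthesis genes had 1 of 7 higher (median -0.07). That gene was Scd2, a fatty acid desaturase, at 7.51 CPM in DHEA and 5.30 CPM in CTRL (0.50, 0.27 to 0.74). Fads1 was at -0.26 (-0.63 to 0.11) and Acly, which supplies cytosolic acetyl-CoA, at -0.16 (-0.26 to -0.06).

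**Figure D2:**
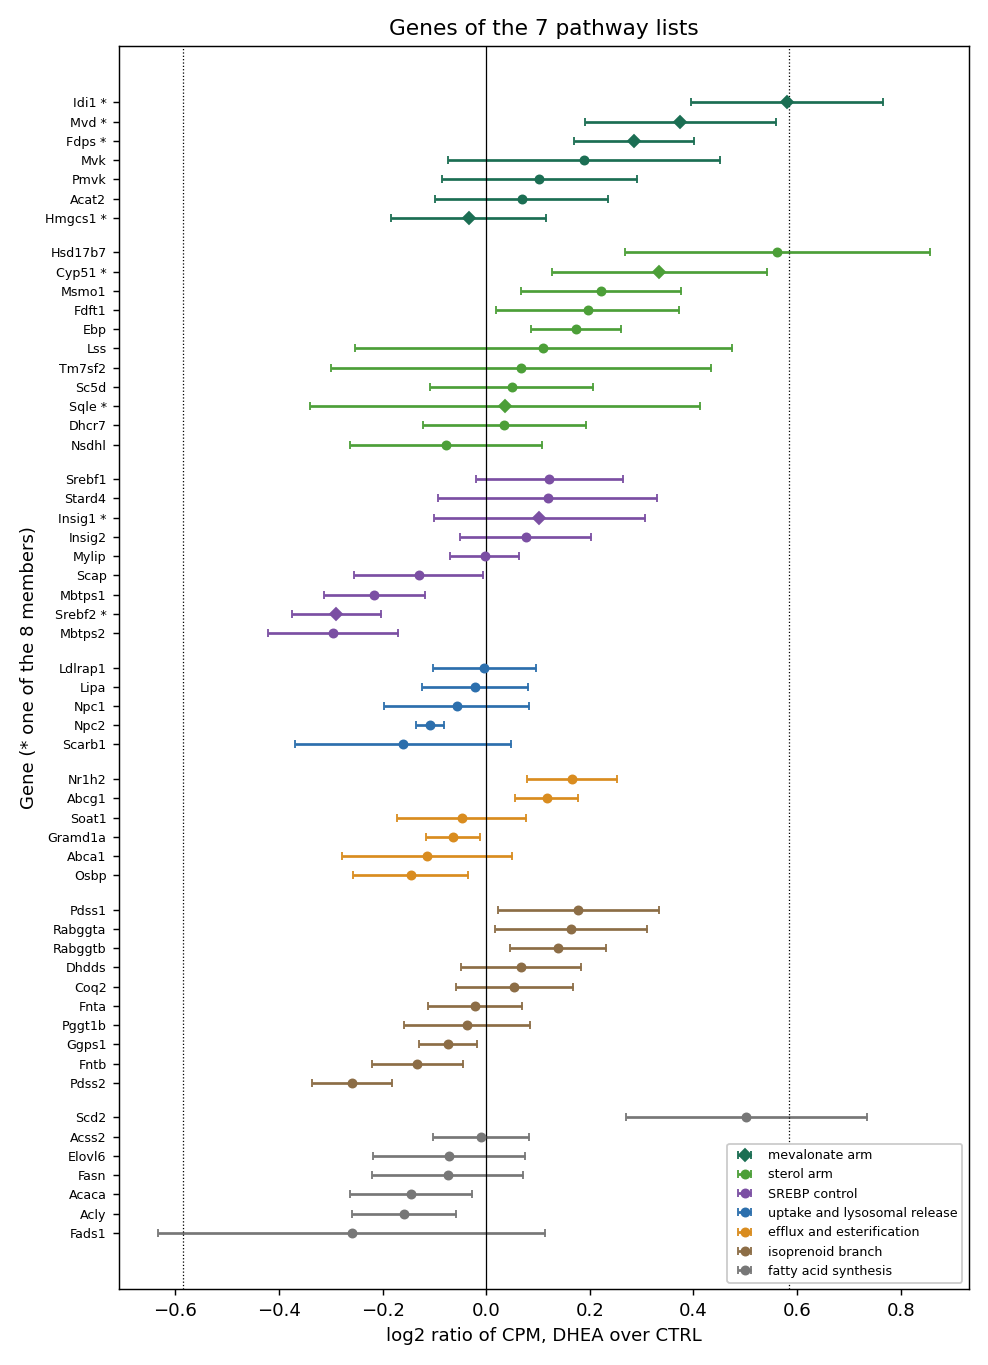
Log2 ratio of CPM, DHEA over CTRL, for 55 of the 58 measured genes of the 7 lists, sorted within each list, with exact 95% counting intervals; diamonds and asterisks are the 8 members and dotted lines mark 1.5-fold. Idi1 and Hsd17b7 lie nearest to the line, 16 of the 18 synthesis genes drawn lie right of 0 and the 5 uptake genes drawn lie left of it; the 3 measured genes not drawn also lie left of 0, so 16 of all 20 synthesis genes are higher and 4 lower.

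The cells were split into 15 states by clustering without any of the 66 pathway genes, so no member shaped its own state. A state was named where at least 3 markers of a list were among its 10 leading genes, and the others keep a number. Memory-like cells (1035 DHEA, 402 CTRL) were led by Cxcr3, Ly6c2 and Il2rb, and effector-like cells (504 and 218) by Gzma, Gzmb, S100a4 and Zeb2 with proliferation genes. Innate-like cells (276 and 226) carried Ikzf2 and Ly49 receptor genes. The interferon-response-like (242 and 376), NF-kB-like (432 and 467) and early-activated-like cells (80 and 81) were led by Ifit, NF-kB and Egr genes. Of the numbered clusters, cluster 0 (1871 and 1232) was led by Igfbp4, Ramp1 and Dapl1, cluster 1 (1316 and 1392) by Hspa1b, Hspa1a and Ccr9, and cluster 2 (1583 and 999) by Gzmm, Samd3 and Scart1. Cluster 3 (970 and 1327) was led by Selenop and Igf1r, cluster 4 (850 and 835) by Auts2 and Ntrk3, and cluster 6 (825 and 576) by Usp28 and Kif1b. Cluster 10 (261 and 275) was led by Hdac9 and Myb, cluster 12 (281 and 152) by Lars2, Gphn and Zfp407, and cluster 13 (173 and 159) by Dntt and Ccr9.

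The summed level of the 8 genes spanned 2.13-fold between states in the DHEA library and 2.29-fold in the CTRL library. In DHEA the early-activated-like cells were highest at 187 CPM (143 to 240), followed by cluster 10 at 169 (149 to 190) and the effector-like cells at 164 (149 to 180). In CTRL cluster 12 was highest at 198 CPM (157 to 246), followed by cluster 13 at 159 (132 to 189) and cluster 1 at 148 (140 to 157). Srebf2 gave 49 of the 81 member UMIs of cluster 12 in CTRL (119.6 CPM). The enzyme gene Fdps was lowest of all 15 states there, at 14.2 CPM in DHEA and 9.76 CPM in CTRL. Other enzyme genes ranked high in cluster 12 in CTRL, from few UMIs. Idi1 ranked 1 of 15 (14.6 CPM, 6 UMIs), and Hmgcs1 (19.5 CPM, 8 UMIs) and Cyp51 (12.2 CPM, 5 UMIs) each ranked 2. In DHEA these 3 genes ranked 13, 10 and 7 there, and Mvd ranked 11 in CTRL and 15 in DHEA. The enzyme genes of cluster 12 thus differed in rank, and the states were not ordered without Srebf2. Cluster 2, the innate-like cells and the memory-like cells were among the 4 lowest in both libraries. Cluster 2 stood at 90.4 CPM in DHEA and 86.1 CPM in CTRL, and the innate-like cells at 87.8 and 86.6 CPM. These 3 states and the effector-like cells had the most of Ccl5, a chemokine gene of memory and effector cells, at 2539 to 11407 CPM in DHEA and 826 to 6258 in CTRL. The effector-like cells did not share the low level of the other 3. Each state in either order overlapped its next neighbour within counting error.

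**Figure D3:**
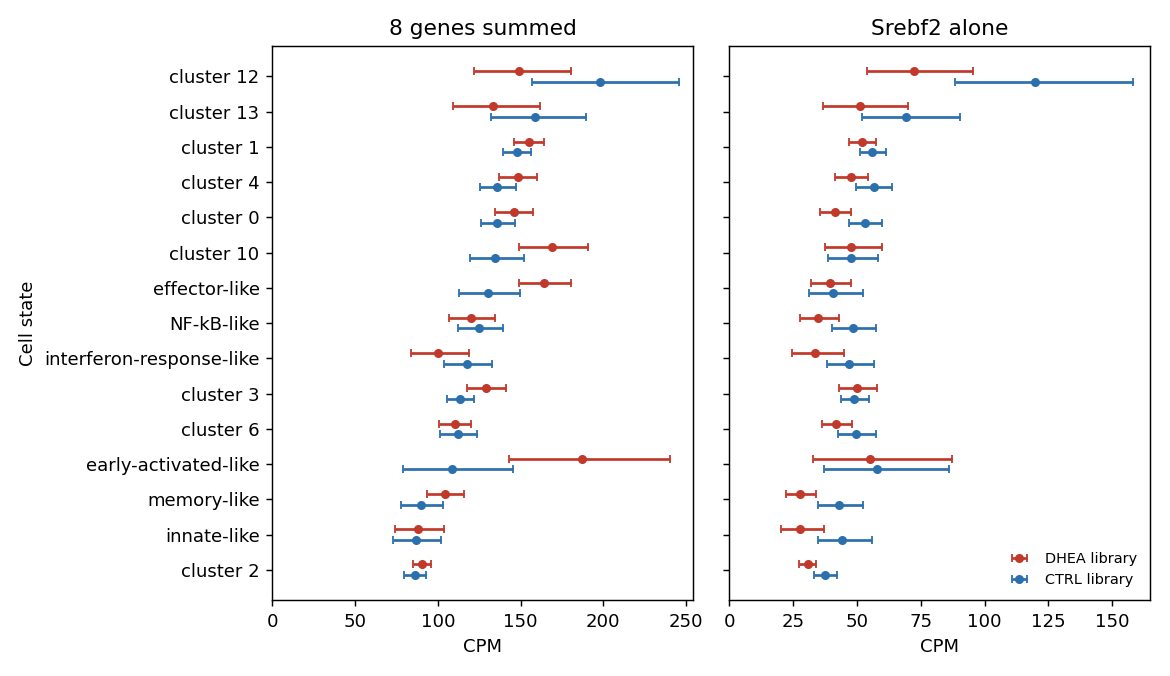
CPM of the 8 genes summed (left) and of Srebf2 alone (right) in each of the 15 states, with DHEA points above CTRL points and exact 95% Poisson intervals; states run down by their summed level in CTRL. Cluster 2, the innate-like and the memory-like cells lie at the low end, and Srebf2 in DHEA lies left of CTRL in 14 of 15 states.

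For Srebf2, DHEA cells had the lower level in 14 of 15 states, and in 6 of them its counting interval lay below no difference. Over all genes and states with at least 20 UMIs, 10.3% of ratios had such an interval, with 4.69% to 18.6% in single states. The difference was largest in cluster 12, at 72.5 CPM in DHEA and 119.6 CPM in CTRL (log2 ratio -0.72, -1.32 to -0.13). It was -0.67 (-1.24 to -0.11) in the innate-like cells, at 27.8 CPM in DHEA and 44.2 CPM in CTRL. The memory-like cells had 27.6 CPM in DHEA and 42.9 CPM in CTRL (-0.63, -1.06 to -0.21). In cluster 3 the level was 49.95 CPM in DHEA and 49.02 CPM in CTRL (0.03, -0.24 to 0.29), and in the effector-like cells 39.3 and 40.7 CPM (-0.05, -0.52 to 0.43). Cells of cluster 12 were shallow, with median depths of 2154 UMIs in DHEA and 2366.5 in CTRL, against 4483 and 5615 over all cells. With cells thinned to 1000 UMIs, cluster 12 stood at -1.01 (-1.90 to -0.12), while the intervals of the innate-like (-0.51, -2.36 to 1.29) and memory-like cells (-0.30, -1.21 to 0.66) include no difference.

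Idi1 was higher in the DHEA library in 10 of the 11 states in which its UMIs reached 20, with a median log2 ratio of 0.77. In 5 of them the counting interval lay above no difference, as did 8.2% of ratios over all genes and states, with 4.54% to 13.4% in single states. Cluster 4 had 18.5 CPM in DHEA and 9.64 CPM in CTRL (0.94, 0.39 to 1.51), and cluster 10 had 20.0 and 10.4 CPM (0.93, 0.09 to 1.81). Cluster 0 stood at 15.7 CPM in DHEA and 8.50 CPM in CTRL (0.89, 0.32 to 1.47), and cluster 2 at 8.47 and 4.63 CPM (0.87, 0.30 to 1.48). The memory-like ratio of 1.24 (0.14 to 2.50) rests on 31 UMIs in DHEA and 9 in CTRL, and was -0.35 (-2.25 to 1.83) with each cell thinned to 1000 UMIs. Thinned, cluster 4 stood at 1.501 (0.29 to 2.87), and cluster 10 at 3.25 (0.39 to 8.70) from 9 cells with a UMI in DHEA and 1 in CTRL. The thinned intervals of cluster 0 (0.45, -0.57 to 1.53) and cluster 2 (0.82, -0.73 to 2.65) include no difference. Median depth was 2598 UMIs in DHEA and 5666 in CTRL in the memory-like cells, and 1895 and 3567 in cluster 0, the lowest ratios of DHEA to CTRL depth over the 15 states. Cluster 6 showed no higher Idi1, at 6.85 CPM in DHEA and 6.95 CPM in CTRL (-0.02, -0.81 to 0.79).

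Fdps was higher in 10 of 13 states, Mvd in 11 of 13 and Cyp51 in 9 of 11. Their counting intervals lay above no difference in 4, 2 and 2 of these states, beside 8.2% of ratios over all genes and states. States of 1 library are not replicates. No share over all genes stands beside the counts of direction by state, here or for Srebf2 and Idi1. Fdps stood at 50.2 CPM in DHEA and 34.8 CPM in CTRL in cluster 10 (log2 ratio 0.53, 0.04 to 1.02), its highest level in DHEA. The effector-like cells, where its level was highest in CTRL, stood at 41.2 CPM in DHEA and 41.4 CPM in CTRL (-0.01, -0.47 to 0.47). Mvd in the effector-like cells had 17.4 CPM in DHEA and 7.34 CPM in CTRL (1.24, 0.27 to 2.34), from 46 and 11 UMIs. In cluster 0 it had 15.95 CPM in DHEA and 7.91 CPM in CTRL (1.01, 0.43 to 1.61). Cyp51 stood at 6.74 CPM in DHEA and 3.57 CPM in CTRL in cluster 2 (0.92, 0.26 to 1.61). With cells thinned to 1000 UMIs, the intervals of Fdps in cluster 10 (0.78, -0.60 to 2.25), of Mvd in the effector-like cells (1.45, -1.60 to 6.97) and cluster 0 (0.45, -0.72 to 1.70) and of Cyp51 in cluster 2 (1.59, -0.0037 to 3.60) all include no difference. In the innate-like cells Cyp51 had only 7 UMIs in DHEA and 3 in CTRL.

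Hmgcs1 had no interval leaving out no difference in the 13 states where it had 20 UMIs, with ratios on both sides, 7 higher and 6 lower. Its ratios there ran from -0.28 in cluster 0 to 0.43 in cluster 10. Insig1 was higher in 8 of 12 states, and its memory-like ratio of 1.41 (0.17 to 2.85) came from 27 UMIs in DHEA and 7 in CTRL (1.35, -0.79 to 4.54, when thinned). Sqle reached 20 UMIs in 4 states only, and in the innate-like cells it had 0 UMIs in both libraries, which allows up to 2.28 CPM in DHEA and 2.30 CPM in CTRL. In the small early-activated-like cells the 8 genes together had 61 UMIs in DHEA and 45 in CTRL, at 187 and 109 CPM (0.78, 0.20 to 1.37; 1.83, 0.47 to 3.42, when thinned).

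**Figure D4:**
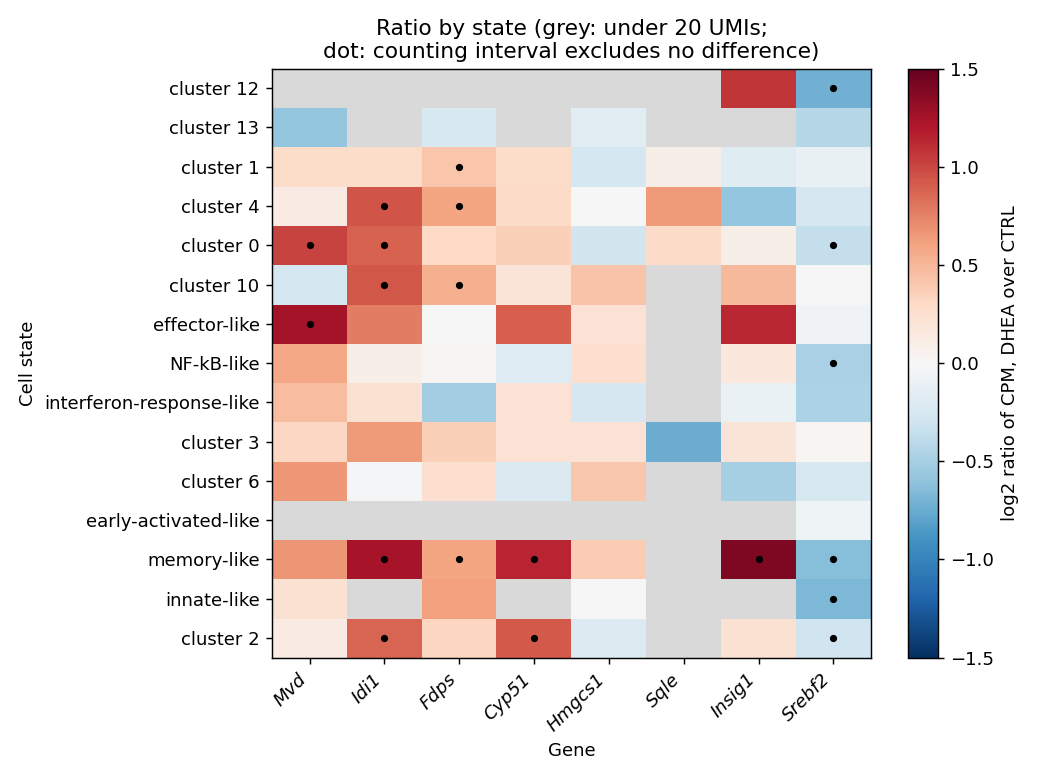
Log2 ratio of CPM, DHEA over CTRL, of the 8 genes (columns) in the 15 states (rows, ordered by summed level in CTRL); grey cells have under 20 UMIs and dots mark counting intervals that leave out no difference. The Idi1 column is red in 10 of its 11 measured states and the Srebf2 column lies below 0 in 14 of 15, while the Hmgcs1 column holds both colours and no dot.

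Few cells carried a UMI of any one member. After thinning each cell to 1000 UMIs, which left out 137 DHEA and 8 CTRL cells, Idi1 was seen in 1.37% (1.16 to 1.61) of DHEA cells and 0.976% (0.780 to 1.21) of CTRL cells. Fdps was seen in 2.88% (2.57 to 3.22) of DHEA cells and 2.17% (1.87 to 2.50) of CTRL cells, and Srebf2 in 4.38% (4.001 to 4.79) and 5.01% (4.56 to 5.49). Unthinned, these shares were 4.98% and 4.07% for Idi1, 11.17% and 11.002% for Fdps and 16.6% and 23.4% for Srebf2. At least 1 of the 8 genes was seen in 12.63% (12.002 to 13.28) of thinned DHEA cells and 11.8% (11.2 to 12.5) of thinned CTRL cells, but in 38.9% and 44.9% unthinned, so no order is read from the share of any member. Exactly 2 distinct members were seen in 97 of 10562 thinned DHEA cells and 53 of 8709 CTRL cells. No cell type in these files is known to lack these genes, so no background share from free RNA could be set beside these.

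Levels of the members were compared in pairs across the 30 units of state by library. On the scale of log2(CPM + 1), 26 of 28 pairs had a positive Pearson r, with a median of 0.38. The share of positive pairs over all genes was not taken, so these counts do not set the members apart. Units weigh alike whatever their counts, and the early-activated-like CTRL cells had 2 UMIs of Hmgcs1 and 0 of Sqle. Idi1 and Cyp51 were closest (r = 0.78), and Srebf2 and Fdps were farthest apart (r = -0.33). Among 7610 genes with at least 1000 UMIs, the 8 outside the pathway lists most like the summed members were Slamf1 (r = 0.83), Tspan32 (0.76), Sertad3 (0.75), Actr10 (0.74), Ppp1r2 (0.73), Aim2 (0.72), Itgb7 (0.72) and Kcnn4 (0.72). Myc, a growth gene of activated T cells, ranked 5303 (r = -0.02). Srebf2 held 36.6% of the UMIs of the sum, and the members do not follow it alike. Idi1 ranked 3 (r = 0.75), Hmgcs1 20 (0.67), Srebf2 23 (0.67) and Fdps 1322 (0.36). Units of 1 library share its depth and treatment, and states differ in depth, so these values describe the units only.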

How the data were processed

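Splenic CD8 T cells were profiled with 10x Genomics 3' chemistry, 1 library per group. The deposited matrices hold raw UMI counts which the file headers credit to Cell Ranger 8.0.1. No role is stated for mm39 and Seurat 4.3.0, both listed in the submitters' processing notes, and no source used here gives barcode filters. Of 12128 DHEA and 9495 CTRL barcodes, 11671 and 9210 passed the gene and mitochondrial limits, and 972 and 493 of these failed the CD8 and CD3 gate. Scrublet marked 1 DHEA and 0 CTRL cells, under the 0.5% at which it would count as working, so no doublets were removed.

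For clustering, each cell's counts were put on a total of 10000 and logged. The 2000 most variable genes were used, leaving out immunoglobulin, receptor segment, mitochondrial, ribosomal, haemoglobin, Xist, Y-linked and pathway genes. Genes were scaled within each library, and the Leiden method (resolution 1.0, 15 neighbours, 30 components) returned 15 clusters (scanpy 1.11.5, leidenalg 0.10.2, Python 3.11.15). UMIs were summed per library and state. Log2 ratios carry the exact interval of the split of 2 counts. A library with 0 UMIs was put at 3, and no ratio was given where both had 3 or fewer. R 4.3.3 with edgeR 4.0.16 gave TMM factors only. The ratio, interval and thinning steps were tested on simulated counts.

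Named genes were the 8 members, up to 3 more per list by size of ratio, Scap, Abca1 and Abcg1, the 8 genes most like the summed members and up to 4 leading genes of a state; Cd8b1, Cd4, Npc1, Nr1h3, Ccl5 and Myc were added for context after their values were seen. Some genes the rule names are not reported here, but count in their lists. The members and lists were chosen with earlier results of these data known, and the motif letters after the promoter windows were seen. Symbols were matched to RefSeq spans for 66 of 66 pathway genes, and promoters and spans are RefSeq's on GRCm38.p6, another build than the files'.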

Additional observations from a re-analysis of the deposited data

Results flagged for a closer look

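Mvd was picked out in barcodes that the main comparisons left out, the 972 DHEA and 493 CTRL barcodes outside the CD8 and CD3 gate. It had 27 UMIs (11.4 CPM) there in DHEA and 9 (4.54 CPM) in CTRL, a log2 ratio of 1.33 (0.20 to 2.60). These barcodes held 2367233 UMIs in DHEA and 1982004 in CTRL, so the DHEA barcodes were shallower on average. No share of all genes with an interval that leaves out no difference is given for these barcodes. Srebf2 was lower there, at -0.43 (-0.85 to -0.01). The intervals of the other members include no difference, with Cyp51 lower (-0.17, -1.21 to 0.87) and Hmgcs1, Idi1, Sqle, Fdps and Insig1 higher. The summed members stood at 0.13 (-0.14 to 0.39).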

How the results depend on the processing

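The direction of Idi1, Mvd, Cyp51, Fdps and Srebf2 was kept in all cells under each setting tried, with log2 ratios of 0.45 to 0.62 for Idi1, 0.28 to 0.45 for Mvd, 0.29 to 0.60 for Cyp51, 0.21 to 0.44 for Fdps and -0.30 to -0.23 for Srebf2. The ratio of Hmgcs1 ran from -0.08 to 0.00, of Insig1 from -0.05 to 0.17 and of Sqle from -0.08 to 0.11, on both sides of no difference. The summed members stood at 0.03 (-0.03 to 0.09) in cells with 2000 to 8000 UMIs and at 0.03 (-0.02 to 0.08) without early-activated-like, effector-like and NF-kB-like cells. They moved to 0.11 (-0.0076 to 0.22) with cells thinned to 1000 UMIs and to 0.25 without Srebf2, where fewer genes enter the sum. Of the pathway lists, where none was 1.5-fold apart, 1 gene (Idi1) was with TMM scaling, 2 (Idi1 and Hsd17b7) with under 5% mitochondrial UMIs and without the cluster led by Lars2, and 1 (Nr1h3, not measured at 200 UMIs) at a minimum of 50 UMIs. Of all genes, 341 were 1.5-fold apart, against 163 thinned, 913 with at least 50 UMIs and 109 with at least 1000, where other numbers of genes were measured. By state, thinning put Idi1 at -0.35 (-2.25 to 1.83) in the memory-like cells, and the cause was not tested. Of 107 ratios by state, 106 stayed within their interval at resolution 0.5 and 1 moved out of it, and 103 stayed and 4 moved with pathway genes kept in. At resolution 0.5 some states were merged, as clusters 1, 4 and 13 had the same matched cluster, as did cluster 2 and the innate-like cells. The matched cluster held 58.6% of the interferon-response-like cells there, and 45.5% of cluster 1 with pathway genes kept in. Staying within a wide interval is therefore a weak check of a ratio by state. Of the 98 with a thinned value, 77 stayed, 20 moved and 1 was reversed. Leaving out cells by the cluster led by Lars2, by activated states or by depth gap, and subtracting span medians, were chosen after seeing the data. Shallow counts limit Sqle and all ratios in small states. No paired analysis was possible because each group has 1 library.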
